A study of Homo sapiens with 12 samples.

Results

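The neighbouring genes AADAC, AADACP1, AADACL2 and AADACL2-AS1, on the long arm of chromosome 3, were followed through all groups of the series. They were listed by symbol and found in the count table by their Ensembl identifiers, as 4 of 60651 genes. They had been picked from these same libraries because they were higher after decitabine in HUCCT1 cells and, to a smaller degree, after the drug combination in EGI-1 cells. Their values in those contrasts are therefore a description and carry no test. AADAC and AADACP1 were higher in both contrasts, which the choice of members already fixes. AADACL2 was close to undetected everywhere, and AADACL2-AS1 was higher in HUCCT1 with decitabine but not in the EGI-1 combination.

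AADAC encodes arylacetamide deacetylase, an esterase of the endoplasmic reticulum that is abundant in liver and intestine, where it hydrolyses drugs such as flutamide and phenacetin and takes part in triglyceride turnover. AADACL2 encodes a related, little studied hydrolase known from skin, AADACP1 is a transcribed pseudogene of the family and AADACL2-AS1 is a long non-coding RNA read from the opposite strand. Decitabine is a cytidine analogue that is built into DNA and traps DNA methyltransferases, so that methylation is lost as cells divide, while talazoparib inhibits and traps PARP enzymes at DNA breaks.

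RNA sequencing was done on 2 human cholangiocarcinoma (bile duct cancer) cell lines of wild-type label, HUCCT1 and EGI-1, in 12 libraries and 6 groups of 2. HUCCT1 cells received vehicle (DMSO) or 1 µM decitabine. EGI-1 cells received vehicle (DMSO), 0.5 µM decitabine, 200 nM talazoparib, or 0.5 µM decitabine with 200 nM talazoparib (the combination). All cells were harvested at 72 h. The decitabine dose differed between the lines, so line and dose cannot be told apart, and each model is a single cell line. Nothing in the labels says that the libraries of a group came from separate cultures, so p-values measure only the spread between these libraries, which may be technical. Libraries held between 32519985 and 34965627 counts in HUCCT1 and between 23139065 and 33181930 in EGI-1. The biliary markers KRT7, KRT19, EPCAM and SOX9 were present in both lines, with KRT7 between 41.2 and 73.1 CPM (counts scaled to the size of each library by TMM) in EGI-1 and between 3637 and 6739 CPM in HUCCT1, while SPP1 stayed at or below 0.241 CPM. Of the 7 hepatocyte genes, SERPINA1 was expressed, at 47.2 to 95.2 CPM in HUCCT1 and 21.7 to 28.2 CPM in EGI-1, and CPS1 reached 2.07 CPM. TF, APOB and FGB stayed at or below 0.944 CPM, ALB at or below 0.114 CPM and TTR at 0 in all libraries.

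One library stood apart. In EGI-1 combination replicate 2, the 3 leukocyte markers PTPRC, CD3E and CD68 summed to 18.5 CPM, against 0.0379 to 0.966 CPM in the other 11 libraries. PTPRC (CD45) had 381 counts there and 1 to 7 elsewhere, and CD3E had 148 counts there and 0 to 23 elsewhere, whereas CD68 was at 0.241 CPM, within its range of 0 to 0.343 CPM elsewhere. The part of this signal in the results below was not tested, and the combination values of the members are also given without it.

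In GENCODE 44 (GRCh38), the 4 genes spanned 194 kb, from chr3:151733916 to chr3:151928175. AADACL2 (ENSG00000197953) lay first, on the forward strand at chr3:151733916-151761339, with 5071 bp of exons. AADACP1 (ENSG00000240602), a transcribed unprocessed pseudogene, followed on the forward strand at chr3:151770474-151784421, with 1193 bp of exons, and AADAC (ENSG00000114771) at chr3:151814073-151828488, with 1632 bp of exons. AADACL2-AS1 (ENSG00000242908) ran on the reverse strand from chr3:151751443 to chr3:151928175, across the introns or flanks of the other genes, and its 635 bp of exons overlapped no exon of theirs. The start of AADACP1 was 43.6 kb from that of AADAC, and the start of AADACL2-AS1 was 114 kb away on the other side. Inside the span lay 3 further genes: ENSG00000250271, an unnamed transcribed pseudogene between AADACP1 and AADAC, SUCNR1, which encodes the receptor for extracellular succinate, and ENSG00000242097, a processed pseudogene. The last of these overlapped 1593 bp of AADACL2 exons on the opposite strand, and since the strand setting of the counting is not given in the sources used here, their reads cannot be told apart.

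Because decitabine lowers methylation at CpG sites, the promoter sequences of the locus are shown with their CpG sites in capitals. Of the 4 genes, AADAC and AADACL2 had a promoter entry in RefSeq (GRCh38.p14), covering 250 bases before to 50 bases after the start. The promoter of SUCNR1 is added because this gene lies inside the locus and was also higher after decitabine in HUCCT1, though nearly undetected in EGI-1. Each is printed 5′ to 3′ on the forward strand, AADAC from chr3:151813866-151814165, AADACL2 from chr3:151733677-151733976 and SUCNR1 from chr3:151873393-151873692.
AADAC: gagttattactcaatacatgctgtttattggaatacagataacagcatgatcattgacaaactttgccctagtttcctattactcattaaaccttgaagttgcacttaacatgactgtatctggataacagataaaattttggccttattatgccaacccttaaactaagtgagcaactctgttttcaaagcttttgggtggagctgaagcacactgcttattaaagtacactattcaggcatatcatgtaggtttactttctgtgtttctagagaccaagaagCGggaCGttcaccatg
AADACL2: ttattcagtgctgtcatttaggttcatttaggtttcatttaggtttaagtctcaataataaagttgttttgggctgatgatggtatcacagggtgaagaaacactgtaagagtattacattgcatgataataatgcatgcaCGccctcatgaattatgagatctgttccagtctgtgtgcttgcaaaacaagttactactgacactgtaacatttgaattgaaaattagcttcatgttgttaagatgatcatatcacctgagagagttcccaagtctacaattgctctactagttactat
SUCNR1: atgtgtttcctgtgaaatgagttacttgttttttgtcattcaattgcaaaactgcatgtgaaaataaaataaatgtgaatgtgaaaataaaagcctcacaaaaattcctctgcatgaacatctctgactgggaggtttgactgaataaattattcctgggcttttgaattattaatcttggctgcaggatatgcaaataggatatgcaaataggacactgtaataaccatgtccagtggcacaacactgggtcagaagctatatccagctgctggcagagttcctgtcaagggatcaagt

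All 3 promoters were poor in CpG. AADAC had 2 CpG sites, both after the start, AADACL2 had 1, before the start, and SUCNR1 had 0, against a median of 14 over the 35116 RefSeq promoters of the same length. As few or fewer CpG sites were found in 18.2% of all promoters for AADAC, in 11% for AADACL2 and in 3.96% for SUCNR1. GC content was 37.3% for AADAC, 35.3% for AADACL2 and 37.7% for SUCNR1. On either strand, none of the 3 windows held the letters TATAAA (the TATA box, in 11.5% of promoters), TGANTCA (an AP-1 site, in 7.71%), CAAAGTCCA (an HNF4-type site, in 0.384%) or of a 12-letter HNF1-type site (in 0.0484%). These are matches of letters in 1 window per gene, and no methylation was measured here.

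AADAC, the protein-coding gene of the group, went from nearly undetected to clearly detected in HUCCT1 after decitabine. It had 0 and 2 counts in the vehicle libraries and 66 and 57 counts after decitabine. In CPM these were 0 and 0.0593 against 1.86 and 1.72, so both treated libraries lay well above both vehicle libraries. The ratio was 60.1 (95% counting interval 16.3 to 502), and its width comes from the 2 vehicle counts in all. The fitted log2 fold change was 5.74 (SE 0.62), 4.81 without vehicle replicate 1 and 8.93 without vehicle replicate 2, which held both of those counts. The decitabine level in HUCCT1, 1.79 ± 0.097 CPM (SD, n = 2), was above that of untreated EGI-1 cells, 1.27 ± 0.13 CPM (SD, n = 2). TMM scaling was done within each line, so levels can be compared across the lines only roughly.

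In EGI-1, AADAC was present without treatment and changed far less. The vehicle libraries had 1.18 and 1.36 CPM, the decitabine libraries 1.02 and 0.928, the talazoparib libraries 1.16 and 1.39 and the combination libraries 1.89 and 2.79. Both combination libraries were above the other 6, both decitabine libraries were the lowest, and the talazoparib libraries straddled the vehicle libraries. Against vehicle, the log2 fold change was 0.89 (SE 0.28) in the combination, -0.38 (SE 0.30) with decitabine and 0.02 (SE 0.29) with talazoparib. These 3 contrasts share the 2 vehicle libraries. Without combination replicate 2, the library with leukocyte markers, the combination value was 0.57, and without combination replicate 1 it was 1.14.

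Ordered by mean level, AADAC stood highest in the EGI-1 combination (2.34 CPM), then in HUCCT1 decitabine (1.79), EGI-1 talazoparib (1.28), EGI-1 vehicle (1.27), EGI-1 decitabine (0.975) and HUCCT1 vehicle (0.0297). Only EGI-1 talazoparib and EGI-1 vehicle, neighbours in this order, had overlapping libraries. HUCCT1 decitabine reached 1.86 CPM and the EGI-1 combination began at 1.89 CPM. Since the lines were scaled separately, the order of these groups is not settled.

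AADACP1, the pseudogene, had the most counts of the 4 genes and followed AADAC in HUCCT1. It had 6 and 5 counts with vehicle and 233 and 143 after decitabine, which is 0.180 and 0.148 CPM against 6.56 and 4.32 CPM. The treated libraries differed from each other, but both were far above the vehicle libraries, with a ratio of 33.4 (95% counting interval 18.4 to 67.5) and a log2 fold change of 5.02 (SE 0.35). In EGI-1, it had 7.97 and 8.07 CPM with vehicle, 11.5 and 7.31 with decitabine, 8.61 and 8.44 with talazoparib and 11.1 and 13.0 in the combination. The 2 decitabine libraries fell on either side of the vehicle libraries, and the combination libraries were above both vehicle libraries but overlapped the range of the decitabine libraries. The log2 fold change against the shared vehicle libraries was 0.59 (SE 0.17) in the combination, 0.23 (SE 0.17) with decitabine and 0.09 (SE 0.17) with talazoparib. Without combination replicate 2 the first of these was 0.47, and the decitabine value turned on 1 library, at -0.13 without decitabine replicate 1 and 0.51 without decitabine replicate 2. The level reached in HUCCT1 after decitabine, 5.44 CPM on average, stayed below all 8 EGI-1 libraries, unlike that of AADAC, with the lines scaled separately.

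AADACL2-AS1, the antisense RNA, behaved differently in the 2 lines. In HUCCT1 it had 0 and 2 counts with vehicle and 85 and 79 after decitabine, or 2.39 and 2.38 CPM. The ratio was 80.1 (95% counting interval 21.8 to 667), with a log2 fold change of 6.16 (SE 0.57), 5.23 without vehicle replicate 1 and 9.34 without vehicle replicate 2. In EGI-1 it ranged from 9 to 17 counts over all 8 libraries, with 0.381 and 0.644 CPM with vehicle and 0.601 and 0.448 CPM in the combination. The combination libraries lay between the vehicle libraries, and the log2 fold change was 0.03 (SE 0.45), with a ratio of 1.02 (95% counting interval 0.578 to 1.79). Without combination replicate 2 the log2 value was 0.24. With decitabine it was 0.16 (SE 0.44) and with talazoparib -0.32 (SE 0.47). HUCCT1 after decitabine thus held more of this RNA than any EGI-1 library, the reverse of the order for AADACP1.

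AADACL2, the second protein-coding gene, had 2 and 1 counts in the HUCCT1 decitabine libraries and 0 in the other 10 libraries. A sum of 3 counts is at the floor used here for detection, so no fold is given and a change was not detectable at this depth. It passed no filter on low counts, while the other 3 members passed in each line. In HUCCT1 the groups did not overlap for any of the 4 members, AADACL2 only by these counts. Over all genes tested in that contrast, both decitabine libraries lay above both vehicle libraries for 33.9%, and 19.6% were higher at an adjusted p under 0.05. Since the members were picked on it, nothing is read from that count.

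**Figure D1:**
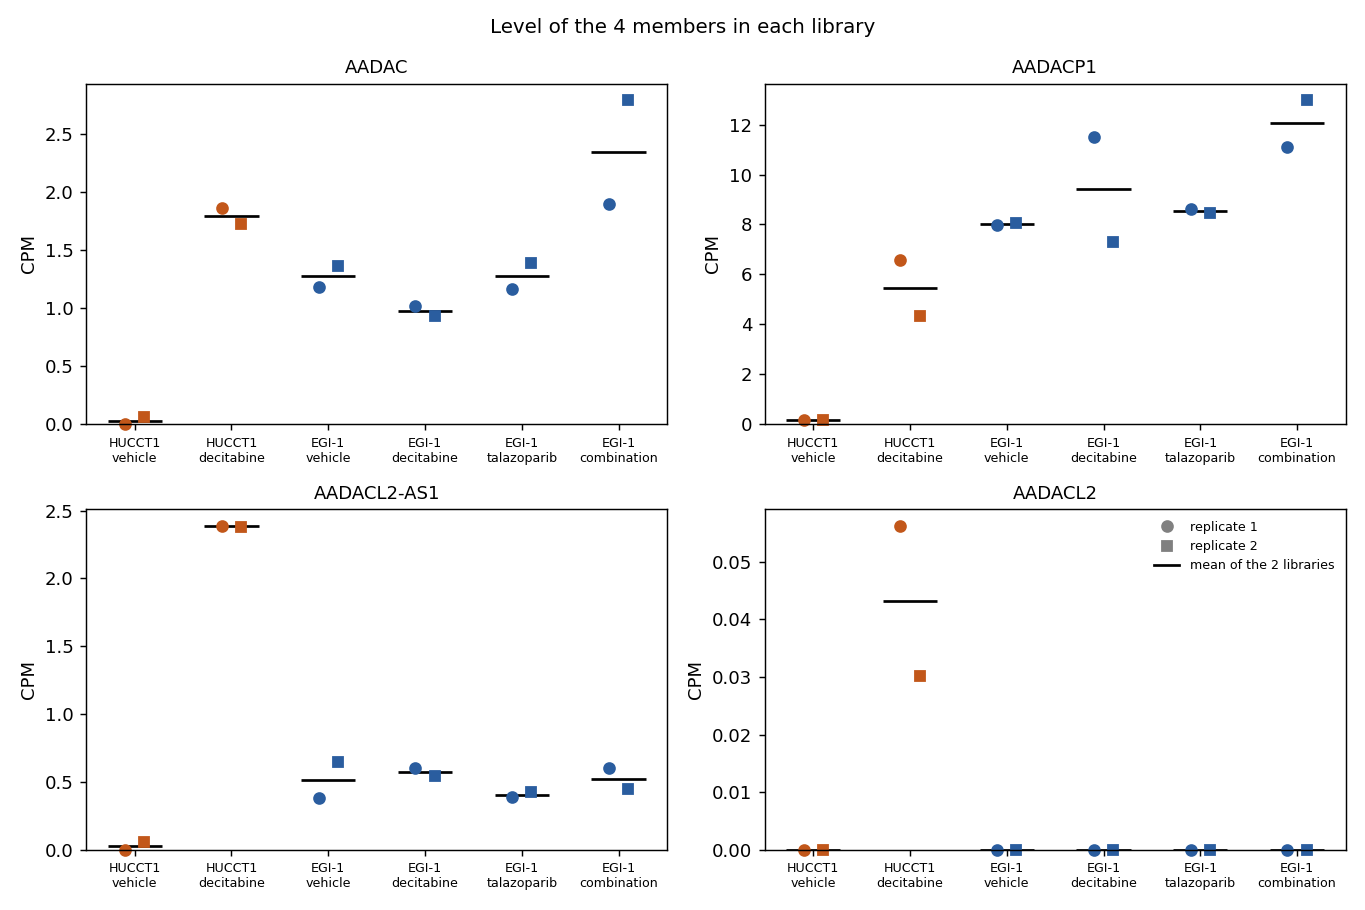
Level of each member in the 12 libraries, in CPM (y axis, linear from 0, a different scale in each panel) by group (x axis), with circles for replicate 1, squares for replicate 2 and a bar for the mean of the 2 libraries. AADAC, AADACP1 and AADACL2-AS1 leave the baseline in HUCCT1 only with decitabine, while in EGI-1 all 3 are present with vehicle, and AADACL2 never exceeds 0.0563 CPM.

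The contrast between decitabine and talazoparib in EGI-1 uses 4 libraries that did not choose the members, and was therefore tested. None of the 3 members that passed the filter differed when tested by quasi-likelihood in edgeR, with p adjusted by Benjamini-Hochberg over 22406 genes, and 0 of 3 had an unadjusted p under 0.05. In this contrast 0.946% of all genes were called in either direction, and 9.86% had an unadjusted p under 0.05. The log2 difference, decitabine minus talazoparib, was -0.40 (SE 0.30, adjusted p = 0.729) for AADAC, 0.14 (SE 0.17, adjusted p = 0.84) for AADACP1 and 0.48 (SE 0.46, adjusted p = 0.794) for AADACL2-AS1. DESeq2's Wald test also called none, and the AADACP1 value was -0.21 without decitabine replicate 1. Both decitabine libraries were lower than both talazoparib libraries for AADAC and higher for AADACL2-AS1, but these differences did not pass the test. The share of all genes with such separate groups was not computed for this contrast, so nothing is read from the separation.

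Per kilobase of exon, AADAC was the least abundant of the 3 detected members in HUCCT1 after decitabine. AADACP1 stood at 4.16 times the AADAC level per kilobase there and AADACL2-AS1 at 3.43 times. In EGI-1 with vehicle, AADACP1 stood at 8.63 times AADAC per kilobase, and AADACL2-AS1 at 1.04 times. In the EGI-1 combination these ratios were 7.04 and 0.576. Exon lengths were taken from GENCODE 44, whose AADACP1 record is a later version than the one in the count table, so the ratios between genes carry that uncertainty, whereas the change of a ratio between groups does not depend on length.

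The make-up of the locus RNA in HUCCT1 after decitabine differed from that in EGI-1, where it varied less between treatments. Line and dose cannot be told apart in this comparison. Of the counts of AADACP1, ENSG00000250271, AADAC and AADACL2-AS1 together, AADACL2-AS1 took 18.7% and 23.7% in the HUCCT1 decitabine libraries and between 2.49% and 5.82% in the 8 EGI-1 libraries. AADACP1 took 51.3% and 42.9% in HUCCT1 after decitabine and between 71.9% and 77.9% in EGI-1. The AADAC share was 14.5% and 17.1% in HUCCT1 after decitabine and between 6.95% and 15.5% in EGI-1. ENSG00000250271 took 15.4% and 16.2% in HUCCT1 after decitabine and between 8.9% and 13.4% in EGI-1. The ranges of HUCCT1 after decitabine did not meet the EGI-1 ranges for AADACP1, AADACL2-AS1 and ENSG00000250271, and they overlapped for AADAC. The HUCCT1 vehicle libraries held only 10 and 11 such counts, too few to compare. No test was made of these shares.

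**Figure D2:**
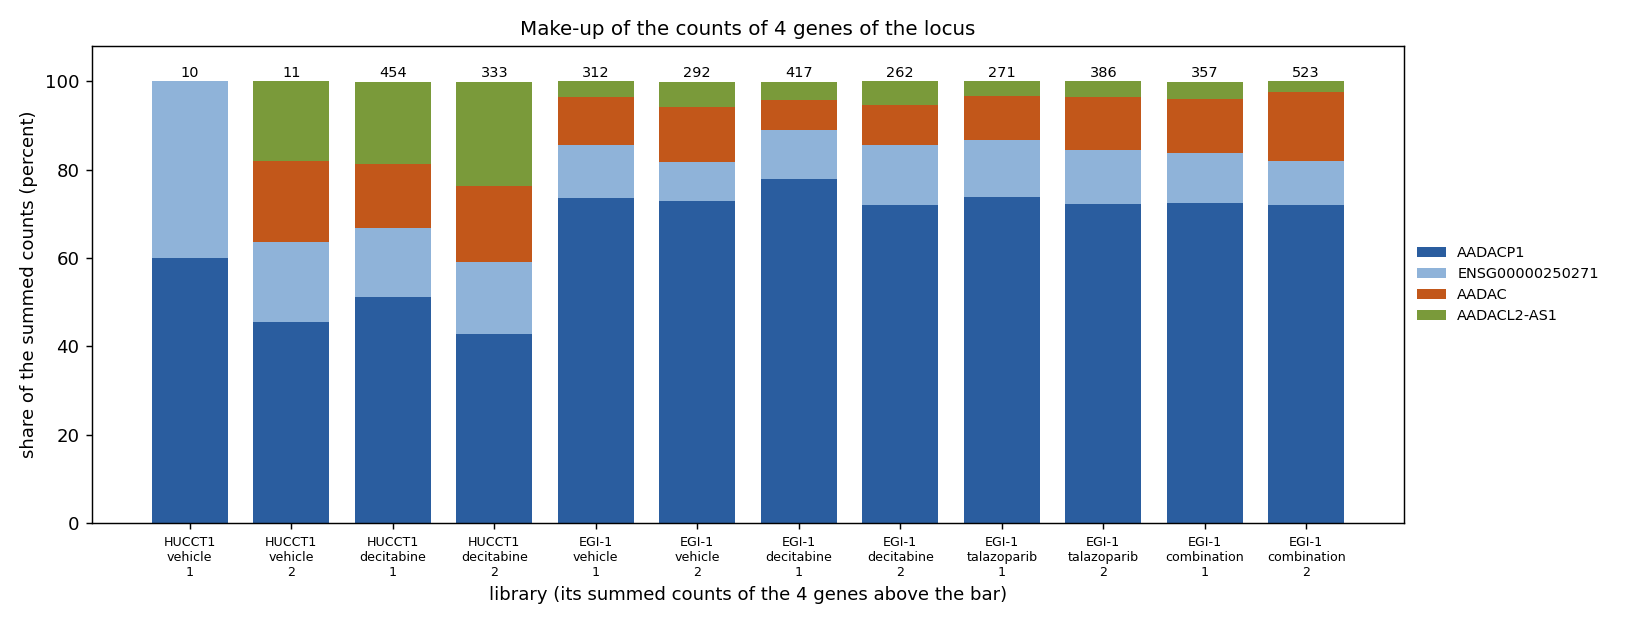
Share of each gene in the summed counts of AADACP1, ENSG00000250271, AADAC and AADACL2-AS1 (y axis, percent) in each of the 12 libraries (x axis), with the summed counts printed above each bar. AADACL2-AS1 takes 18.7% and 23.7% after decitabine in HUCCT1 and at most 5.82% in any EGI-1 library, and the HUCCT1 vehicle bars rest on 10 and 11 counts.

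AADACP1 resembles AADAC in sequence, so reads could in principle be shared. Of the 1608 words of 25 bases in AADAC exons, 30 (1.87%) also occurred in AADACP1 exons, at 50 bases 1 of 1583 did and at 75 bases 0 of 1558 did. ENSG00000250271 shared 0 words of 25 bases with AADAC or with AADACP1. How reads with several matches were counted is not given in the sources used here.

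The 2 other genes inside the locus that could be tested were higher with decitabine in HUCCT1. They passed the filter on low counts only through the decitabine libraries, so being tested there already required a rise. Their p-values in this contrast are therefore no independent support. ENSG00000250271 had 4 and 2 counts with vehicle and 70 and 54 after decitabine, with a log2 fold change of 4.28 (SE 0.49, adjusted p = 1.4e-07, edgeR quasi-likelihood test) and a ratio of 20.2 (95% counting interval 9.02 to 56.1). SUCNR1 had 0 and 0 counts with vehicle and 62 and 35 after decitabine, at least 31.6-fold higher when 3 counts over the vehicle group are taken as the floor (edgeR adjusted p = 1.6e-07). Both genes were higher in both treated libraries, and both stayed called when any 1 HUCCT1 library was left out and with DESeq2. The processed pseudogene ENSG00000242097 had 0 counts with vehicle and 3 and 12 after decitabine, below the filter and untested.

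The 2 genes differed from each other in EGI-1. SUCNR1 had 0 or 1 counts in each of the 8 libraries and was not tested there. ENSG00000250271 was expressed with vehicle at 1.28 and 0.985 CPM and measured 1.62 and 1.35 with decitabine, 1.51 and 1.42 with talazoparib and 1.72 and 1.83 in the combination. Every treated library lay above both vehicle libraries, yet no contrast passed the edgeR test, with a log2 fold change of 0.64 (SE 0.27, adjusted p = 0.118) in the combination, 0.39 (SE 0.28, adjusted p = 0.747) with decitabine and 0.36 (SE 0.28, adjusted p = 0.596) with talazoparib. The difference between the lines in the decitabine effect was itself tested. For ENSG00000250271 it was 3.90 (SE 0.54, adjusted p = 2.2e-05, edgeR), larger in HUCCT1, and it was 1 of 14 neighbours called in that direction, as were 8.74% of all genes. This p-value is no independent support either, since the span was set by members picked for a rise in the same HUCCT1 libraries. MBNL1 was the 1 neighbour called in the other direction, as were 7.2% of all genes. For SUCNR1 it was not called (adjusted p = 0.0987), with EGI-1 at or near 0 counts.

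**Figure D3:**
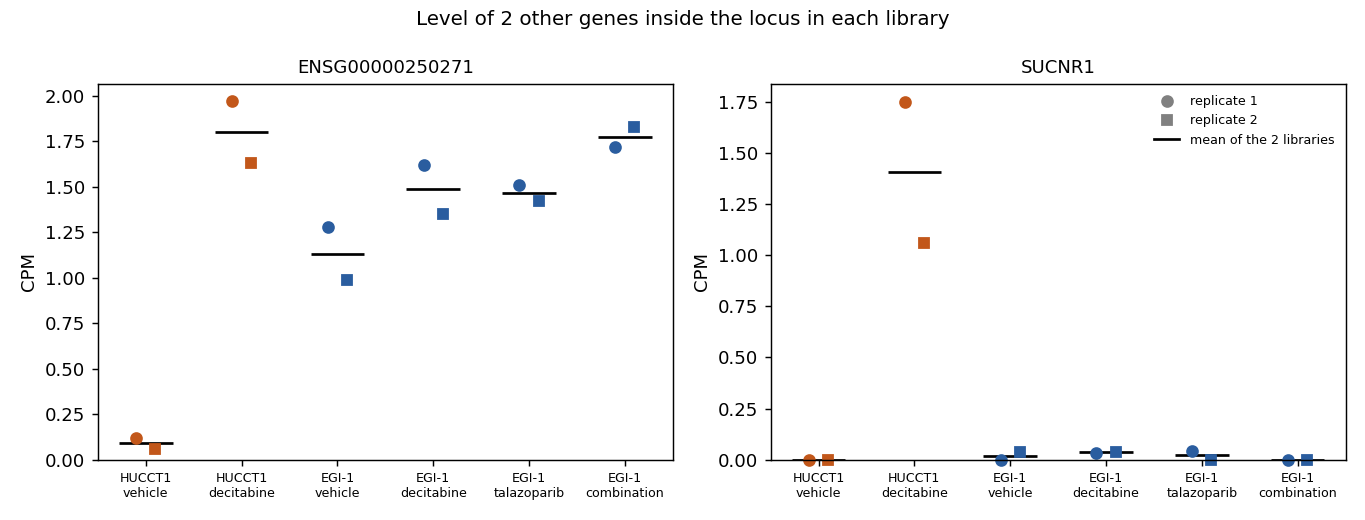
Level of ENSG00000250271 and SUCNR1 in the 12 libraries, in CPM (y axis, linear from 0) by group (x axis), with circles for replicate 1, squares for replicate 2 and a bar for the mean. Both are near 0 in HUCCT1 with vehicle and above 1 CPM with decitabine, but in EGI-1 ENSG00000250271 lies between 0.985 and 1.83 CPM and SUCNR1 never exceeds 0.0431 CPM.

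Within 1 Mb of the locus lay 36 other genes, 3 inside the span and 33 outside it, and 12 of those outside had 0 counts in every library. In HUCCT1, 13 of the 36 could be tested, and 3 (23.1%) were higher with decitabine and 3 (23.1%) lower, against 19.6% and 13.9% of all genes tested. Both ENSG00000250271 and SUCNR1 are among the risers, and the filter let them in only through their decitabine libraries. The count of risers is therefore partly fixed by the filter. Outside the span, 1 of 11 tested (9.09%) was higher and 3 (27.3%) were lower, with a median log2 fold change of -0.15 beside 0.00 over all genes, so rises were no more frequent there than among all genes. The riser outside the span was MED12L, a Mediator subunit gene whose start lies 728.8 kb upstream of that of AADAC, with a log2 fold change of 1.33 (SE 0.46, edgeR adjusted p = 0.0285). The genes that fell were MBNL1, a splicing regulator, with -0.40 (SE 0.11, adjusted p = 0.00709), the pseudogene TMEM14EP with -0.77 (SE 0.18, adjusted p = 0.00163) and a Y RNA copy with -1.64 (SE 0.51, adjusted p = 0.0148), whose family has many near-identical copies, so its value is uncertain. DESeq2 did not call MED12L or the Y RNA copy, and MED12L was also lost without vehicle replicate 1 or 2 or decitabine replicate 1, MBNL1 and the Y RNA copy without vehicle replicate 1 or decitabine replicate 2.

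The rises inside the span were larger than any tested change outside it within 1 Mb. This is largely fixed by the choice, since the members that set the span were picked for this rise. Over all 22479 genes tested in HUCCT1, 2.78% had a log2 fold change at least as high as that of ENSG00000250271 and 0.320% as high as that of SUCNR1. As a description, the corresponding shares were 2.11% for AADACP1, 1.65% for AADAC and 1.53% for AADACL2-AS1. Fitted values of genes with 0 to 2 vehicle counts depend on the prior count.

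In the EGI-1 combination, 11 neighbours could be tested and 0 were called in either direction by edgeR, while 11.1% of all genes were higher and 7.61% lower. At an unadjusted p under 0.05, 1 was higher and 4 were lower, against 16.3% and 14.6% of all genes, and DESeq2 called none. GPR171, an orphan receptor gene of lymphocytes that lies 610.9 kb upstream, had 44 counts in combination replicate 2 and 0 in the other 7 EGI-1 libraries. This is the library with the leukocyte markers, and the gene was below the filter. Neither single drug moved a neighbour past the test in EGI-1, with 0 of 11 called for decitabine against vehicle (0.544% of all genes), 0 of 11 for talazoparib against vehicle (4.12%) and 0 of 11 for decitabine against talazoparib. At an unadjusted p under 0.05 there was 1 gene in each of these contrasts, against 9.14%, 15.9% and 9.86% of all genes. DESeq2 called none there either.

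**Figure D4:**
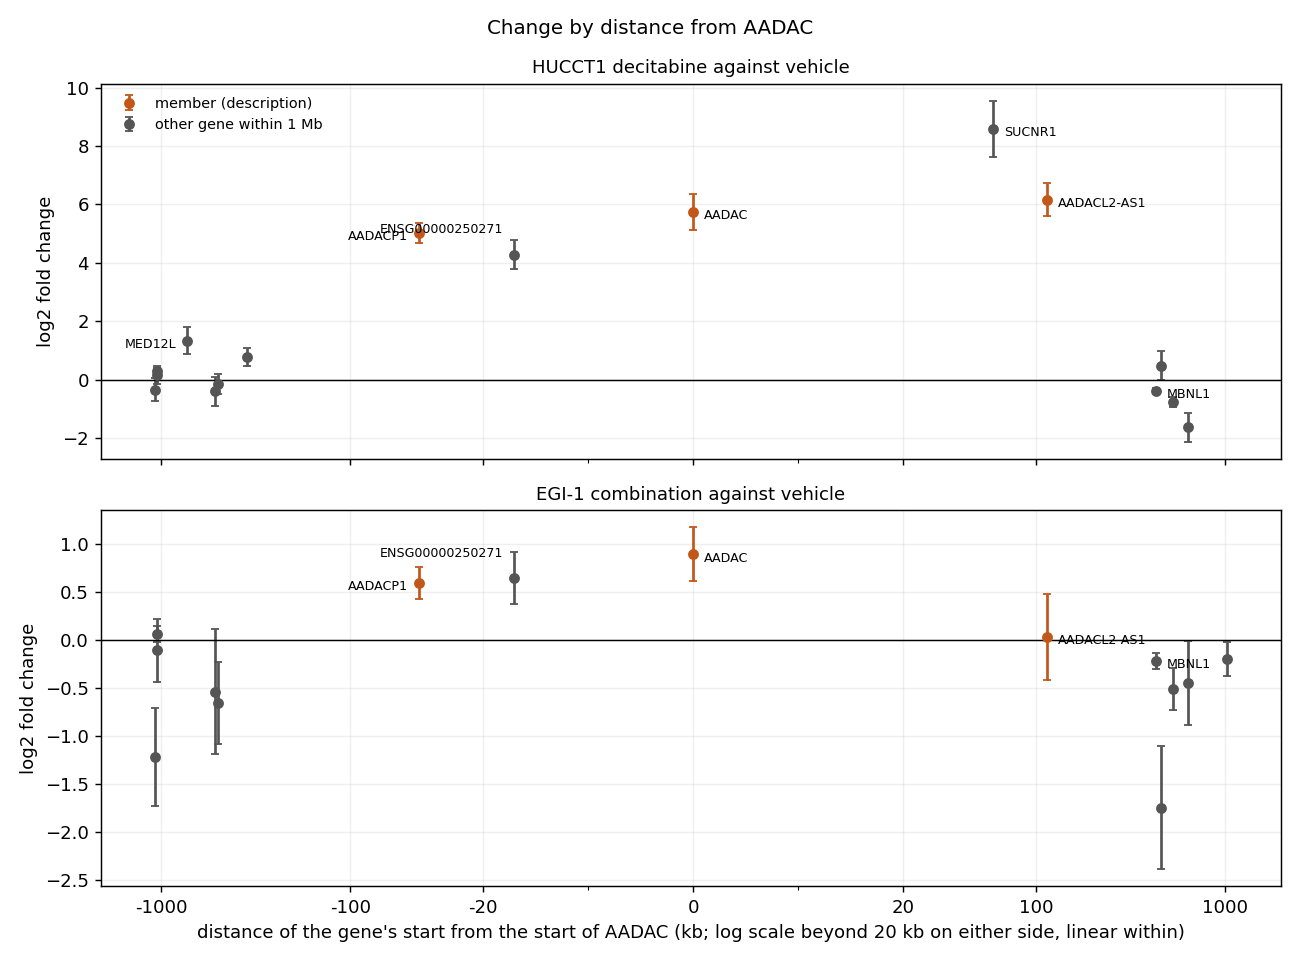
Log2 fold change with its SE (y axis) of each tested gene within 1 Mb of the locus, by the distance of its start from the start of AADAC (x axis, kb, log scale beyond 20 kb), for decitabine in HUCCT1 and the combination in EGI-1, with members in orange and other genes in grey. The high values in HUCCT1 (4.28 to 8.58) all belong to the locus, whose span was set by members picked for this rise. Points for SUCNR1, AADAC and AADACL2-AS1 rest on 0 to 2 vehicle counts, so their height depends on the prior count.

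Outside the locus, the genes whose levels ran closest to those of AADAC over the 12 libraries were WNT5B, a secreted Wnt ligand (Pearson r = 0.98 of log2 CPM), ROBO4, a guidance receptor (0.98), LYN, a Src-family kinase (0.97), PALM2AKAP2 (0.97) and IL1B, the cytokine interleukin-1 beta (0.97). In all, 202 genes reached 0.90 or more, so a high r was not rare among the 25093 genes compared. The libraries form separate clusters, and the value rests mainly on the pair of HUCCT1 vehicle libraries, where AADAC was near 0. Without them, over 10 libraries, r was 0.75 for WNT5B, 0.66 for ROBO4, 0.64 for LYN, 0.77 for PALM2AKAP2 and 0.73 for IL1B. For AADACP1 it went from 0.94 to 0.14 and for AADACL2-AS1 from 0.83 to 0.47, so outside that pair of libraries the members themselves did not run closely together, whereas ENSG00000250271 went from 0.95 to 0.64. WNT5B, for example, had 1 and 3 counts in HUCCT1 vehicle, 221 and 203 after decitabine, and 112 to 228 in EGI-1.

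Of the relatives of AADAC elsewhere in the genome, 2 of 4 could be tested and 0 were called in HUCCT1. There 19.6% of all genes rose and 13.9% fell, so with 2 genes tested nothing is read from that count. AADACL3 had 0 counts in all libraries and AADACL4 at most 1. NCEH1, a cholesteryl ester hydrolase, and LIPE, the hormone-sensitive lipase, were expressed, and neither passed the edgeR test in HUCCT1, with log2 fold changes of -0.26 (SE 0.11, adjusted p = 0.0601) and 0.29 (SE 0.16, adjusted p = 0.174). Both depended on the method or on single libraries. NCEH1 was called lower by DESeq2's Wald test (adjusted p = 0.0496) and by edgeR with the title number as a replicate block (adjusted p = 2.5e-04). The LIPE value was 0.49 without decitabine replicate 1 and 0.05 without decitabine replicate 2. NCEH1 was higher in the EGI-1 combination, by 0.27 (SE 0.059, adjusted p = 0.00355), from 205 to 247 CPM, a call lost without EGI-1 vehicle replicate 1, and LIPE was not called.

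Among other drug and ester hydrolases, the class of enzymes to which AADAC belongs, 3 of 8 tested rose and 3 fell in HUCCT1, with a median of -0.09, where 19.6% of all genes rose and 13.9% fell. CES4A, a carboxylesterase, had 3 and 1 counts with vehicle and 78 and 59 after decitabine, a ratio of 33.5 (95% counting interval 12.8 to 125). It passed the filter on low counts only through the decitabine libraries, so the count of risers in HUCCT1 is partly fixed by the filter. Its relative CES3 rose by 2.54 on the log2 scale (SE 0.18, edgeR adjusted p = 2.5e-11). CMBL fell by 0.83 (SE 0.13, adjusted p = 1.2e-05). Of 9 tested in the EGI-1 combination, 1 rose, CES3 with 0.68 (SE 0.14, adjusted p = 0.00182), and 1 fell, EPHX1 with -0.41 (SE 0.082, adjusted p = 0.00166), beside 11.1% and 7.61% of all genes. These counts were 0 higher without EGI-1 vehicle replicate 2 and 2 without combination replicate 1.

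Of the enzymes of drug metabolism, 4 of 14 tested rose in HUCCT1 and 2 fell, with a median of 0.21. These counts are near the 19.6% and 13.9% of all genes that rose and fell. The largest were the cytochromes CYP1A1 (1.64, SE 0.24, edgeR adjusted p = 5.2e-06), CYP3A5 (1.60, SE 0.27, adjusted p = 3.5e-04) and CYP1B1 (1.55, SE 0.13, adjusted p = 1.0e-09). The EGI-1 combination had 3 of 14 that rose and 1 that fell, which was CYP1B1 (-0.92, SE 0.09, adjusted p = 1.5e-06), opposite in sign to its change in HUCCT1, against 11.1% and 7.61% of all genes. The count of 3 was 1 without EGI-1 vehicle replicate 1 and 0 without EGI-1 vehicle replicate 2, and the count of 2 in HUCCT1 was 0 without vehicle replicate 1 and 1 without decitabine replicate 2.

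Of the transcription factors of liver and gut, 7 of 18 tested rose in HUCCT1 and 5 fell, with a median of 0.35, beside 19.6% and 13.9% of all genes. CDX1, an intestinal factor, had 0 and 0 counts with vehicle and 11 and 18 after decitabine, at least 9.44-fold higher against 3 counts over the vehicle group. CEBPA had 2 and 0 against 13 and 13 counts (ratio 12.7, 95% counting interval 3.18 to 110). The intestinal factor CDX2 rose by 1.73 (SE 0.46, edgeR adjusted p = 0.00502). CDX1 and CEBPA passed the filter on low counts only through their decitabine libraries, so the count of risers in HUCCT1 is partly fixed by the filter. The CDX2 call was lost without vehicle replicate 1 (1.38, adjusted p = 0.0624), and that of CEBPA without vehicle replicate 2 or either decitabine replicate (adjusted p between 0.0755 and 0.115). Under the EGI-1 combination 3 of 17 rose, with FOXA3 at 1.12 (SE 0.30, adjusted p = 0.0132), and 4 fell, with ONECUT2 at -0.59 (SE 0.061, adjusted p = 2.4e-06), where 11.1% and 7.61% of all genes did. These counts depended on single libraries, with 4 higher in HUCCT1 without decitabine replicate 2, 3 lower without decitabine replicate 1, and, in the combination, 0 higher without EGI-1 vehicle replicate 1, 1 higher without combination replicate 1, 1 lower without EGI-1 vehicle replicate 2 and 2 lower without EGI-1 vehicle replicate 1 or combination replicate 2.

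Of the genes of triglyceride storage and breakdown, 7 of 15 tested rose in HUCCT1 and 3 fell, with a median of 0.20, compared with 19.6% and 13.9% of all genes. The lipid droplet gene CIDEC had 0 and 0 counts with vehicle and 34 and 60 after decitabine (at least 30.6-fold higher). LPL, the lipoprotein lipase, had 0 and 0 against 27 and 23 (at least 16.3-fold higher). PLIN2, a lipid droplet coat protein gene, rose by 3.48 (SE 0.21, edgeR adjusted p = 1.1e-12). CIDEC and LPL passed the filter on low counts only through their decitabine libraries. The count of risers in HUCCT1 is therefore partly fixed by the filter. In the EGI-1 combination 7 of 13 rose and 2 fell (11.1% and 7.61% of all genes), also with a median of 0.20, led by PLIN5 at 1.15 (SE 0.28, adjusted p = 0.007), while PLIN2 fell there by 0.34 (SE 0.066, adjusted p = 0.00144). Without EGI-1 vehicle replicate 1, 4 rose, and without any 1 of the 4 libraries 1 fell. Beside these medians, that of all genes was 0.00 in HUCCT1 and -0.02 in the combination. The summed levels of the marker lists did not move together in HUCCT1. That of the 7 hepatocyte markers was 48.3 to 72.2 CPM in HUCCT1 with vehicle and 87.8 to 97.0 CPM with decitabine, nearly all of it SERPINA1, with TTR at 0. The 5 enterocyte markers summed to 101 to 118 CPM with vehicle and 43.9 to 47 CPM with decitabine, mostly ANPEP and with SI at 0, and the 7 biliary markers to 8497 to 9919 CPM and 5434 to 6474 CPM. The 7 keratinocyte markers summed to 85.1 to 93.2 CPM and 78.8 to 81.8 CPM, mostly FLG and with IVL and LORICRIN at 0. Over the HUCCT1 libraries KRT5 ranged from 1.83 to 14.8 CPM and KRT14 from 0.0297 to 4.29 CPM, so the sum does not stand for each marker. The part of these lists in the results was not tested.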

How the data were processed

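Gene counts of 12 RNA-seq libraries were used as deposited by the authors (unit counts, whole reads per Ensembl gene, not normalised). The submitters' processing notes name fastp, Trim Galore, HISAT2, featureCounts and GRCh38, whereas the study's methods describe other tools for EGI-1, namely STAR and RSEM. The annotation release, the strand setting and the treatment of reads with several matches are not given in the sources used here. The library names of the talazoparib samples carry another number than the labelled dose, which was used here.

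Groups came from the sample titles. Counts were scaled by TMM and tested with edgeR 4.0.16 (R 4.3.3) by quasi-likelihood with Benjamini-Hochberg adjustment, over all genes that passed filterByExpr, 22479 in HUCCT1 and 22406 in EGI-1, with 1 fit per line and 1 joint fit of 25096 genes for the difference between lines. An adjusted p under 0.05 made a call. SE was the absolute log2 fold change divided by the square root of F. CPM values came from the fit of each line, so HUCCT1 and EGI-1 were scaled separately. Log2 CPM came from the joint fit, with a prior count of 2. Ratios of summed counts have exact 95% intervals, which cover counting error only, and groups at 0 were set against a floor of 3 counts. Gene positions came from GENCODE 44, in which 60437 of 60651 identifiers were found, and promoters from RefSeq. The method was tested on simulated data.

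The members and all gene lists were chosen with earlier results of these data known. Named were the members, every neighbour called in HUCCT1 decitabine or the EGI-1 combination, next to a member or overlapping one, the 5 genes most correlated with AADAC, and from each list the 3 called genes with the largest change in HUCCT1. Members of the AADAC family, CES3, EPHX1, CYP1B1, FOXA3, ONECUT2, PLIN5 and PLIN2 in the EGI-1 combination, and GPR171, were named after their values were seen. Alternatives were DESeq2 1.42.0, its size factors, no filter, a replicate block and leaving out each library.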

Additional observations from a re-analysis of the deposited data

Results flagged for a closer look

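ENSG00000250271, the pseudogene between AADACP1 and AADAC, differed between the lines in its response to decitabine, by 3.90 on the log2 scale (SE 0.54, adjusted p = 2.2e-05, edgeR interaction test). The response was higher in HUCCT1 at 1 µM than in EGI-1 at 0.5 µM. The gene lies inside the span set by members picked for a rise in these HUCCT1 libraries, so this p-value is no independent support. All 4 HUCCT1 libraries and all 4 EGI-1 libraries of the contrast were used, and the call held in each of the 10 alternatives, with adjusted p between 2.9e-08 and 4.7e-04.

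MBNL1, 429.8 kb from the start of AADAC, differed in the other direction by -0.39 (SE 0.13, adjusted p = 0.0463). It had 328 and 300 CPM with vehicle and 259 and 218 CPM with decitabine in HUCCT1, and means of 177 ± 3.5 CPM against 178 ± 16 CPM (SD, n = 2) in EGI-1, so the HUCCT1 groups were apart and the EGI-1 groups overlapped. The call was lost when HUCCT1 vehicle replicate 1, HUCCT1 decitabine replicate 2, EGI-1 vehicle replicate 1 or 2, or EGI-1 decitabine replicate 1 was left out.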

How the results depend on the processing

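No called value reversed. In EGI-1, the uncalled AADACP1 difference between decitabine and talazoparib ranged from -0.21 to 0.43 (adjusted p between 0.154 and 0.998, edgeR or DESeq2). For HUCCT1, the value of AADAC ranged from 4.81 to 8.93, that of AADACL2-AS1 from 5.23 to 9.34 and that of AADACP1 from 4.69 to 5.29, and the wide ranges came from leaving out vehicle replicates with 0 to 2 counts. The neighbours called lower in HUCCT1 (3) were between 1 and 3 when 1 library was left out, with 1 left without HUCCT1 vehicle replicate 1 or without HUCCT1 decitabine replicate 2, namely TMEM14EP. In the EGI-1 combination, neighbours called higher (0) and lower (0) were each between 0 and 1 when 1 library was left out, with GPR171 higher without combination replicate 1 and MBNL1 lower without combination replicate 2. Without a filter on low counts they were 1 higher, GPR171, and 2 lower, and with talazoparib 1 was lower. The 44 counts of GPR171 in EGI-1 all came from combination replicate 2, the library with the leukocyte markers. For the difference between lines, the 1 neighbour called lower, MBNL1, was 0 or 1 when 1 library was left out.

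With the title number as a replicate block, neighbours called higher in HUCCT1 were 5 in place of 3, with SIAH2 and IGSF10 added. The numbers gave no evidence of pairing, with r = 0.11 between the deviations in HUCCT1 and between -0.068 and 0.057 in EGI-1, and the block changed no call of a member or neighbour in EGI-1, by title number or by library name. NCEH1 was called lower in HUCCT1 under the block (adjusted p = 2.5e-04, edgeR). Depth limited AADACL2.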
